A study of Mus musculus with 5 samples.

Results

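The basal and stress keratins of mouse salivary gland cells were described in 5 single-cell libraries. They comprised 9 listed genes, Krt5, Krt14, Krt15, Krt17, Krt6a, Krt6b, Krt16, Krt13 and Krt4, out of 31053 genes in the gene list of 4 libraries and 32285 in that of the fifth. All 9 were found by symbol in both lists, and the rule that lists them names genes and sets no threshold on a level. For each gene the level, the ratios to its partners and the variation between barcodes are given.

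Keratins form the intermediate filaments of epithelial cells. A filament is built from heterodimers of 1 acidic type I and 1 basic type II keratin, so keratins act in pairs. Krt5 (type II) with Krt14 (type I) makes the network of basal cells of stratified and glandular epithelia, and Krt15 is a second basal type I keratin, known from quiescent and progenitor basal cells. Krt6a and Krt6b (type II) with Krt16 and Krt17 (type I) are called stress keratins because epidermis switches them on after wounding, in inflammation and in hyperproliferation. Krt13 (type I) with Krt4 (type II) marks the suprabasal cells of internal mucosae. In the salivary gland, Krt5 and Krt14 are known from basal duct and myoepithelial cells.

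All animals were female C57BL/6 mice. Salivary gland organoids (mSGOs) were grown from submandibular gland cells of 4 animals in Matrigel, a basement membrane gel, with a medium of growth factors (EGF and FGF2), N2 supplement, insulin, dexamethasone, the ROCK inhibitor Y27632 and conditioned media that supply R-spondin1 and Wnt3a. The groups were untreated 7-day mSGOs (control), 7-day mSGOs given 7 Gy of photons on day 5, 7-day mSGOs given 7 Gy of protons (plateau) on day 5, untreated 11-day mSGOs, and cells freshly isolated from non-irradiated gland tissue. Donor age was 8 to 12 weeks for the 7-day and tissue groups, and the labels give none for the 11-day group. Each group is 1 library, and the mSGO libraries pool cells of their animals. The control, photon and proton mSGOs were handled on 1 day, while the 11-day mSGOs came from other animals and another run, so culture time and run cannot be told apart. The matrix headers also name different software versions for the 11-day library (7.0.0) and the other 4 (3.0.1), which cannot be told apart from culture time either. With 1 library per group no difference was tested. All intervals are at the 95% level, cover counting error only, and leave out the variation between animals, cultures and library preparations.

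Levels are counts of unique molecular identifiers (UMIs, each a captured transcript counted at its 3′ end) scaled to the UMIs of the library as counts per 1000000 (CPM), so gene length does not enter. They were summed over barcodes with at least 200 detected genes, at most 5% mitochondrial UMIs, no doublet call and at least 1% of UMIs from Malat1, a nuclear transcript that marks barcodes with a nucleus. The number of barcodes summed was 1037 for the control, 1568 for photons, 1376 for protons, 9369 for 11-day mSGOs and 158 for tissue, with 765768 (tissue) to 31686842 (11-day) UMIs and medians of 3024 (11-day) to 5841 (control) UMIs per barcode. Of the barcodes that passed the other filters, the Malat1 minimum kept 98.8% in the 11-day library and 8.55% (proton) to 16% (control) in the others. Each pair of libraries shared 33 to 98 barcode sequences, at most 0.559% of the smaller library. The 4 listed epithelial markers (Epcam, Cdh1, Krt8 and Krt18) were above 20 CPM in all 5 libraries. Of 9 basal markers other than keratins, 8 in each 7-day library and 9 in 11-day mSGOs reached 20 CPM, with sums of 802, 919, 901 and 1373 CPM in the control, photon, proton and 11-day libraries. None of 8 myoepithelial markers reached 20 CPM in any library.

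The 9 genes lie in the 2 keratin clusters of the genome. The 5 type I genes occupy 144 kb of chromosome 11 (GRCm38), in the order Krt13, Krt15, Krt14, Krt16 and Krt17, from chr11:100117327 to chr11:100261029. The 4 type II genes occupy 249 kb of chromosome 15, in the order Krt6b, Krt6a, Krt5 and Krt4, from chr15:101676023 to chr15:101924735. Because several are close copies, the ends of their transcripts (GENCODE vM39) were compared, since reads that fit 2 genes could be lost or misplaced. Krt6a and Krt6b agree at 97.8% of aligned coding bases. Their last 120 coding bases are printed here because they show how few bases set the pair apart upstream of the part that 3′ reads mostly cover. Capitals mark bases that differ from or have no partner in the other gene.

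Krt6a, coding bases 1540 to 1659: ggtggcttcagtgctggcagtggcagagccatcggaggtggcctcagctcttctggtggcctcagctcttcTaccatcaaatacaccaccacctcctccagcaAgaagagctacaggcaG
Krt6b, coding bases 1543 to 1662: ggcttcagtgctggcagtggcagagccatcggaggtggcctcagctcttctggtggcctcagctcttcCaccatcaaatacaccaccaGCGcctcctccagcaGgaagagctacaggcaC

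In the last 500 bases of the transcripts, by contrast, 0 of 451 windows of 50 bases occurred in both genes, and the aligned identity was 80.2%. Krt14, Krt16 and Krt17 do share sequence there. The run of 55 coding bases printed next is the same in all 3, and it is shown because reads that lie inside it cannot be assigned to 1 of them.

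Krt14, Krt16 and Krt17, coding bases 1223 to 1277, 1199 to 1253 and 1112 to 1166: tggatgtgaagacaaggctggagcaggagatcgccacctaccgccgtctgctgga

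In all, 43 of 451 windows of Krt14 and of Krt17 (9.53%) and 76 of Krt16 (16.9%) occurred in another transcript. No window of Krt5, Krt15, Krt6a, Krt6b, Krt13 or Krt4 did. The counts of Krt14, Krt16 and Krt17 are therefore less certain than those of the other 6 genes.

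Krt14, a basal keratin, was the most abundant of the 9 genes in the 7-day control. It stood at 5110.0 CPM [5056, 5164] in control mSGOs, 4834 and 5029 in photon and proton mSGOs, 1635 in 11-day mSGOs and 7.84 (6 UMIs) in tissue. It led the 9 genes in all 3 7-day libraries and was second in 11-day mSGOs. Krt5, its type II partner, was found at 2090.1, 2076, 1858 and 1019 CPM in the same order and at 2.61 CPM (2 UMIs) in tissue. The pair was thus close to level across the 7-day libraries and lower at 11 days. Krt15 was at 533 CPM [516, 550] in the control, 1054 [1033, 1076] after photons, 981 [960, 1003] after protons, 823 in 11-day mSGOs and 2.61 in tissue (2 UMIs). On this scale the control was the lowest of the 4 organoid libraries for Krt15 and the 4 intervals did not overlap, but relative to the median ratio of all genes the 11-day library was the lower of the 2 untreated ones (-0.11 on the log2 scale).

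Among the stress keratins, Krt17 was the most abundant, with 2262, 2465, 2625 and 2014 CPM in the control, photon, proton and 11-day libraries and 6.53 CPM (5 UMIs) in tissue. Its lowest and highest organoid levels, at 11 days and after protons, were the closest among the stress keratins. Krt6a was at 1812, 1739, 1528 and 115.0 CPM, and had no UMI in tissue. Krt6b was at 265, 227, 167 and 10.4 CPM, and Krt16 at 186, 267, 183 and 9.91 CPM, both with no UMI in tissue. These 3 genes were high in the 7-day libraries and low at 11 days. A count of 0 in tissue was taken as up to 3.92 CPM (3 UMIs).

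Krt13, the mucosal type I keratin, was at 745, 593, 499.9 and 95.5 CPM in the organoid libraries and at 1.31 CPM (1 UMI) in tissue. Krt4, its type II partner, was near the limit of counting, with 29, 34, 35 and 19 UMIs (4.29, 4.01, 4.25 and 0.60 CPM) and 1 UMI in tissue. Krt13 therefore lacked a matching amount of Krt4 in every organoid library. The order of levels in the control was Krt14, Krt17, Krt5, Krt6a, Krt13, Krt15, Krt6b, Krt16 and Krt4, and no interval overlapped that of its neighbour. In both irradiated libraries Krt15 stood above Krt13 and Krt16 above Krt6b, though the intervals of Krt16 and Krt6b overlapped after protons. In 11-day mSGOs the order was Krt17, Krt14, Krt5, Krt15, Krt6a, Krt13, Krt6b, Krt16 and Krt4, with overlap between Krt6b and Krt16.

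**Figure D1:**
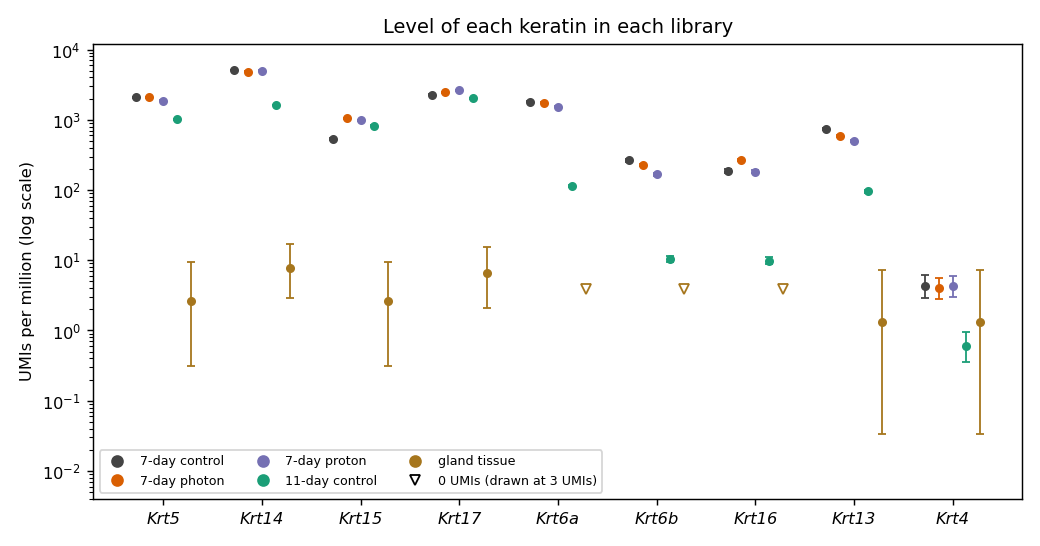
Level of each keratin (CPM, log axis) in the 5 libraries, over the barcodes that met the Malat1 minimum. Points are libraries, error lines are exact Poisson intervals for counting error, and open triangles mark 0 UMIs, drawn at the level of 3 UMIs. Krt14 is highest in the 7-day libraries (4834 to 5110.0 CPM), Krt6a, Krt6b and Krt16 are lower at 11 days, and all tissue values lie under 8 CPM.

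The 9 genes together made up 1.30% of the control, 1.33% of the photon, 1.29% of the proton and 0.572% of the 11-day UMIs. The sum of Krt17, Krt6a, Krt6b and Krt16 over the sum of Krt5, Krt14 and Krt15 was 0.585 in the control, 0.590 after photons, 0.572 after protons and 0.618 at 11 days. This ratio differed little between the libraries, but its makeup differed more. Krt17 held 50.0% of the stress keratin UMIs in the control and 93.7% at 11 days, while Krt6a held 40.04% and 5.35%. Among the basal keratins, Krt15 held 6.89% in the control, 13.2% after photons, 12.5% after protons and 23.7% at 11 days.

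The first comparisons ask what radiation of either kind did to these genes. A gene was compared when it had at least 50 UMIs in the 2 libraries and 20 CPM in the higher one, which left out Krt4, and it was called at a fold of at least 1.5. Ratios are log2 ratios of CPM with 1 CPM added to both sides. In the photon library 1 of the 8 genes, Krt15, was called higher and none lower, where 3.19% of the 4792 genes compared were called higher and 1.67% lower. The median ratio of the 8 was -0.03 beside 0.05 for all genes. Krt15 was 1.98-fold higher (log2 ratio 0.98 [0.93, 1.04]). The next was Krt16 at 0.52 [0.42, 0.62], then Krt17 at 0.12, and on the other side Krt13 at -0.33 and Krt6b at -0.22. Krt14, Krt6a and Krt5 lay between -0.08 and -0.01.

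In the proton library Krt15 was again called higher and Krt6b was called lower, where 2.74% of the 4748 genes were called higher and 1.98% lower. The median of the 8 genes was -0.10 beside 0.03 for all genes. Krt15 was 1.84-fold higher (0.88 [0.82, 0.94]) and Krt6b 1.59-fold lower (-0.66 [-0.77, -0.57]). Krt13, at -0.57 [-0.63, -0.52] or 1.49-fold lower, was just short of the fold. Both rested on the choice of barcodes. Krt6b was past the fold in 12 of 16 alternatives, with -0.50 over all kept barcodes and 0.38 in barcodes with at least 2500 genes. Krt13 was past it in 7 of 16, with -0.94 at no more than 2500 genes. It was at -0.36 over all kept barcodes and at -0.02 in barcodes with at least 2500 genes. Krt6a was at -0.25, Krt5 at -0.17, Krt17 at 0.21, and Krt16 and Krt14 both at -0.02. The photon and proton values share the control library, so they are not independent of each other. Between the irradiated libraries none of the 8 genes was called, where 0.605% of the 4792 genes were called higher and 1.00% lower with protons. Krt16 (-0.54 [-0.64, -0.45]) and Krt6b (-0.45 [-0.55, -0.35]) were the farthest apart, both lower with protons.

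**Figure D2:**
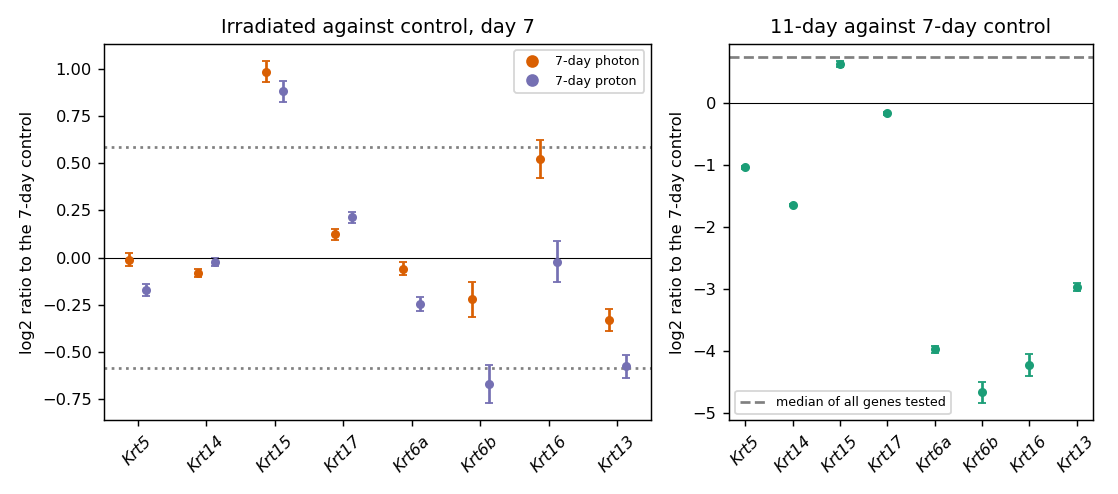
Log2 ratio of CPM for the 8 keratins compared (Krt4 is not drawn) against the control 7-day library, drawn without the added 1 CPM, with conditional exact intervals for counting error. Krt15 stands past the 1.5-fold line in the photon (0.98) and proton (0.88) libraries, and 6 genes lie below -1 in the 11-day library. Dotted lines mark 1.5-fold, and the dashed line is the median of all genes (0.74).

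The Krt15 difference was also seen over all kept barcodes, whatever their Malat1 share, with 557 CPM for the control, 1191 for photons and 1168 for protons. Single barcodes weighed on the rarer genes. In the photon library 1 barcode held 273 of 2267 Krt16 UMIs (12.0%) and the 10 highest held 44.3%. Without the 10 barcodes richest in the gene in each library, Krt16 was at 136, 151 and 123 CPM in the control, photon and proton libraries, and Krt15 at 406, 934 and 825 CPM. Krt6b without them was at 147, 133 and 97.6 CPM, and Krt13 at 563, 464 and 350.4 CPM. The photon and control values of Krt16 were then close to each other, while those of Krt15 were still past the fold. With protons Krt6b was then just short of the fold and Krt13 passed it.

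The next comparison sets untreated 11-day mSGOs against untreated 7-day mSGOs and asks how the keratins differ with time in culture. It used the 30406 genes in both lists and a fold of 2. Of the 8 genes 6 were called lower and none higher, where 40.5% of the 6651 genes were called higher and 5.79% lower. The median ratio was -2.30 for the 8 genes beside 0.74 for all genes, so each value is followed by its difference from that median. Krt6b was 23.3-fold lower (-4.54, and -5.28 relative to the median), Krt16 17.1-fold (-4.10 and -4.84) and Krt6a 15.6-fold (-3.97 and -4.71). Krt13 was 7.72-fold lower (-2.95 and -3.69), Krt14 3.12-fold (-1.64 and -2.38) and Krt5 2.05-fold (-1.04 and -1.78). The Krt5 call held in 12 of 16 alternatives and was lost over all kept barcodes (-0.87), while those of Krt6b, Krt16, Krt6a and Krt13 held in 16 of 16. Their size moved with the genes detected per barcode, and at 2500 or more genes the ratios were -1.17 for Krt6b, -2.82 for Krt16, -2.37 for Krt6a and -1.12 for Krt13. Over the barcodes used, the stress pair partners Krt6a, Krt6b and Krt16 had the lowest ratios of the 8 genes, but at 2500 or more genes Krt14 (-1.76) and Krt5 (-1.23) were lower than Krt6b and Krt13. Krt17 was at -0.17 (-0.91 relative to the median). Krt15 was at 0.63, and at -0.11 relative to the median, so its direction turned with the scaling, as it did at 2500 or more genes (-0.06).

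In fresh tissue all 8 genes compared were called lower than in 7-day mSGOs, where 22.1% of the 5765 genes were called higher and 22.9% lower, with medians of -8.28 for the 8 genes and -0.07 for all. Krt6a was at least 462-fold, Krt6b at least 67.6-fold and Krt16 at least 47.5-fold lower. The Krt6a values hold for these barcodes only, since 1 barcode among all kept tissue barcodes had 7 Krt6a UMIs (1.18 CPM), and at a Malat1 minimum of 0.5% the ratio was -8.08. Krt14 was at -9.18 [-10.80, -8.23] and Krt17 at -8.23 [-10.06, -7.21], on 6 and 5 UMIs. A single barcode of 8140 UMIs held 5 of these Krt14 and 4 of these Krt17 UMIs, and also the 2 UMIs each of Krt5 and Krt15. Markers of the cells that are known to carry these keratins were also low in the tissue library. Of the 9 basal markers other than keratins 1 reached 20 CPM, and Trp63, Col17a1, Ngfr and Cdh3 had no UMI. The 8 myoepithelial markers summed to 26.1 CPM, with none at 20 CPM and Myh11, Oxtr and Actg2 at 0, and 9 of 10 squamous markers were at 0. Acinar markers (9 of the 10 in the gene list at 20 CPM or more, 28821 CPM summed) and macrophage markers (8 of 8, 18109 CPM) were present. So were markers of striated or granular duct (5 of 10, 8324 CPM), luminal duct (9 of 10, 1622 CPM) and endothelium (7 of 7, 4926 CPM). The part of this cell makeup in the keratin difference was not tested.

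Over all 1409 kept tissue barcodes, clustered without keratins, Krt14 was found in few barcodes. Cluster 5 (Foxi1, Klk1b22 and Ascl3 leading), with 115 barcodes and duct-like markers, held 11 Krt14 UMIs in 2.61% of barcodes at a median depth of 1652 UMIs. The erythroid-like cluster 2, whose cells should lack Krt14, held 10 UMIs in 2.58% of 271 barcodes at a median depth of 2325. The shares of barcodes in these clusters were alike, and the levels were 30.8 CPM [15.4, 55.2] and 14.3 CPM [6.84, 26.2], with intervals that overlapped. Elsewhere Krt14 was at 1.24 CPM [0.03, 6.88] in cluster 1, 4.67 [0.96, 13.7] in cluster 3 and 2.18 [0.71, 5.09] in cluster 4, whose intervals lie below that of cluster 5. It was at 10.8 CPM [2.23, 31.6] in cluster 6 and 3.09 [0.08, 17.2] in cluster 10, and clusters 7, 8 and 9 had no UMI, with upper bounds of 20.4, 16.1 and 25.7 CPM, so these 5 clusters overlapped cluster 5. The part of free RNA in these counts was not tested. In the organoid libraries no cluster of a non-epithelial kind was found in which such a background could be measured.

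The ratio of partners in the same barcodes does not depend on the library total. Krt5 to Krt14 was 0.409 in the control, 0.430 after photons, 0.369 after protons and 0.623 at 11 days. There was thus more than 1 Krt14 UMI per Krt5 UMI in each organoid library. Krt15 to Krt14 was 0.104, 0.218, 0.195 and 0.503 in the same order. This ratio was higher than in the control by a log2 value of 1.06 [1.01, 1.12] after photons, 0.90 after protons and 2.27 at 11 days. In the basal type I pool Krt15 thus had the larger share in the other 3 libraries. Krt5 to Krt15 went from 3.92 in the control to 1.97, 1.89 and 1.24.

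Krt17 to Krt14 was 0.443, 0.510, 0.522 and 1.23, so of the 4 organoid libraries Krt17 outnumbered Krt14 only in that of 11-day mSGOs, where the ratio was 2.78-fold that of the control (log2 1.48 [1.44, 1.51]). Krt6a to Krt17 was 0.801, 0.706, 0.582 and 0.0571, a 14.0-fold lower ratio at 11 days (-3.81 [-3.87, -3.75]). Krt16 to Krt17 was 0.0822, 0.108, 0.0698 and 0.0049, 16.7-fold lower at 11 days. Krt17 therefore parted from the other stress keratins at 11 days. Krt6a to Krt16 was 9.74, 6.51, 8.33 and 11.6, and its 11-day difference from the control was 0.25 [0.06, 0.44]. In the barcodes used, these 2 partners were lower by similar amounts at 11 days. Over all kept barcodes their 11-day log2 ratios to the control were less alike, at -3.79 for Krt6a and -4.55 for Krt16. Krt6b to Krt6a, the close copies, was 0.146, 0.131, 0.109 and 0.0903. Krt6b to Krt16 was 1.42 in the control and 0.851, 0.909 and 1.05 in the others. The 11-day ratios of Krt6b rest on few barcodes. Without the 10 barcodes richest in each gene, Krt6b and Krt16 were at 1.14 and 6.83 CPM at 11 days, and at 147 and 136 CPM in the control.

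To describe variation between barcodes, each was thinned to 1000 UMIs and shallower ones were left out (38 control, 69 photon, 33 proton, 135 11-day and 1 tissue barcode), which left 999, 1499, 1343, 9234 and 157. Krt14 was seen in 95.6%, 95.7% and 96.5% of thinned control, photon and proton barcodes and in 66.6% of 11-day barcodes. Before thinning these shares were 99.04%, 99.7%, 99.8% and 85.6%. Nearly every 7-day barcode thus had a Krt14 UMI. Krt5 was seen in 79.8%, 79.5%, 77.2% and 57.3%, and Krt17 in 74.4%, 81.3%, 78.8% and 77.8%. Krt6a was seen in 59.2%, 63.8% and 60.5% of 7-day barcodes but in 5.20% of 11-day barcodes (89.6%, 93.1%, 90.7% and 12.5% unthinned). Krt15 was seen in 24.2% of control, 45.5% of photon, 41.3% of proton and 35.4% of 11-day barcodes (54.7%, 81.3%, 78.7% and 54.1% unthinned). After irradiation Krt15 was thus found in more barcodes as well as at a higher level.

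The rarer genes were seen in few barcodes. Krt13 was seen in 25.3%, 24.5%, 19.9% and 2.86% of thinned control, photon, proton and 11-day barcodes, Krt16 in 12.7%, 15.1%, 11.9% and 0.477%, and Krt6b in 10.6%, 10.3%, 8.12% and 0.173%. In the control, the tenth of barcodes with most of a gene held 97.3% of Krt6b, 85.6% of Krt16, 74.7% of Krt13 and 69.5% of Krt15 UMIs, but 51.2% of Krt6a, 34.9% of Krt17, 28.8% of Krt5 and 27.5% of Krt14 UMIs. These shares depend on the level of a gene, since one seen in few barcodes must have nearly all its UMIs in them. The Fano factor (variance over mean, 1 for pure counting) was 6.59 for Krt13, 5.12 for Krt6a and 5.04 for Krt6b in the control, beside a median of 1.05 and a 99th percentile of 2.98 over 2330 genes. Krt13 and Krt6a had ranks 8 and 9 among those genes, which were not matched to the keratins for level. Krt5, at 1.58, varied least of the 8 genes, and Krt14, Krt15, Krt17 and Krt16 were at 3.31, 2.996, 2.70 and 2.35. After photons the factor of Krt16 was 5.23 and that of Krt6a 2.85. For Krt16 the highest photon barcode had 32 of the 355 thinned UMIs, beside a 99th percentile of 3. At 11 days Krt13 (5.95), Krt6b (4.72, on 36 UMIs) and Krt15 (3.17) led, and Krt16 (1.16, on 48 UMIs) and Krt5 (1.33) were the lowest.

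Correlations between genes were computed over the thinned barcodes of a library as a description. The points share the library and its depth, and most counts are low. Krt6a went with Krt13 (Pearson r of log values 0.38 in the control, 0.28 after photons, 0.31 after protons and 0.23 at 11 days) and, in the control, with Krt6b (0.36) and Krt16 (0.23). Krt17 was turned the other way in 7-day mSGOs, with -0.20, -0.11 and -0.15 against Krt6a and -0.23, -0.16 and -0.20 against Krt13. At 11 days these were 0.03 and -0.04. Krt17 with Krt14 (0.16, 0.16, 0.21 and 0.19) and the known partners Krt5 and Krt14 (0.17, 0.09, 0.12 and 0.16) had weak values above 0.

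**Figure D3:**
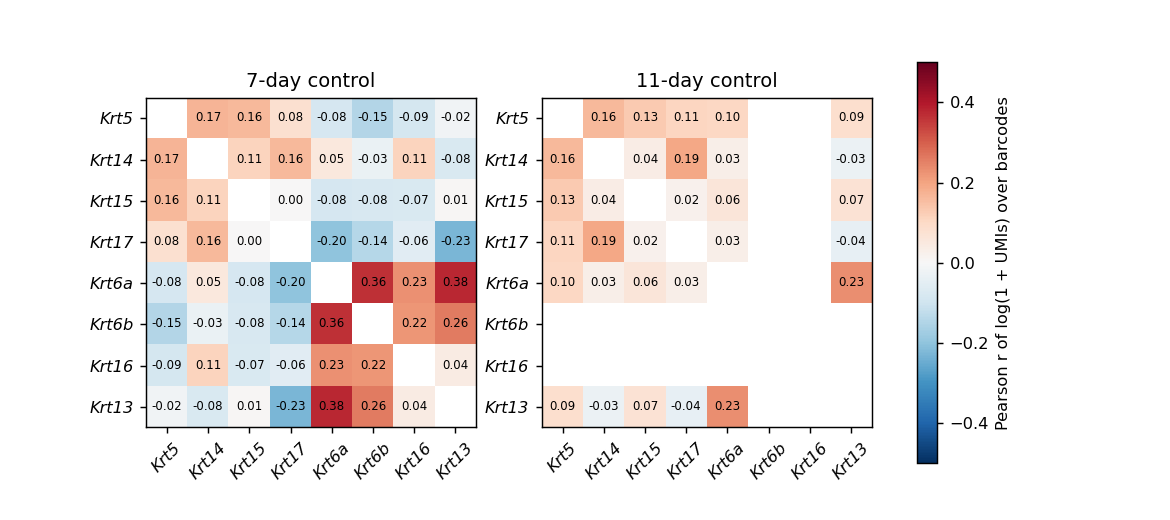
Pearson correlation of log(1 + UMIs) between keratins over barcodes thinned to 1000 UMIs, in the 7-day and 11-day control libraries, with genes too rare to correlate left blank. In the 7-day control Krt6a is above 0 with Krt6b (0.36), Krt16 (0.23) and Krt13 (0.38), and Krt17 is below 0 with Krt6a (-0.20) and Krt13 (-0.23).

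Joint detection was set beside the product of the single shares, which independent genes would give. Krt6b and Krt16 were found together in 2.80% of control barcodes where the product of their shares is 1.35%, a ratio of 2.08, and this ratio was 1.54 after photons and 2.08 after protons. Krt6a and Krt13 were found together in 18.9% (product 14.98%) of control barcodes, and at 11 days in 0.66% (product 0.15%), a ratio of 4.45. For Krt17 and Krt6b the ratio was below 1 in the control (0.85), photon (0.89) and proton (0.86) libraries. In the control, mean Krt13 over thinned barcodes with 0, 1 and at least 2 Krt6a UMIs (408, 263 and 328 barcodes) was 0.22, 0.44 and 1.40 UMIs, and mean Krt6b was 0.05, 0.07 and 0.57. Mean Krt17 over the same barcodes was 2.35, 2.55 and 1.90.

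Genes outside the 9 were ranked by their correlation with each keratin over the 999 thinned control barcodes and the 9234 thinned 11-day barcodes. In the control, Krt6a was most like Sprr2f (0.46), a small proline-rich protein of the cornified envelope, Dmkn (0.45), a secreted protein of differentiating epidermis, and Ly6d (0.44). Krt6b was most like Sprr2f (0.52), Sprr2d (0.47) and Sprr2h (0.45), and Krt16 like Sprr2d (0.30), Dmkn (0.27) and Sprr2f (0.25). Krt13 was most like Ly6d (0.39), 2610528A11Rik (0.37) and Fabp5 (0.36), a fatty acid carrier of keratinocytes. Each of these 4 keratins thus had at least 1 of its 3 nearest genes in common with another of them. Krt17 was most like S100a6 (0.36), a calcium-binding protein, and the ferritin chains Fth1 (0.22) and Ftl1 (0.19), and S100a6 was also the gene with the lowest value for Krt6a (-0.39). Krt15 was most like Aldh3a1 (0.21), Capg (0.18) and Wfdc2 (0.18), Krt5 like Hsp90ab1 (0.17), Ccnd1 (0.16) and Ly6a (0.16), and Krt14 like Fabp5 (0.16), Itm2b (0.14) and Pkm (0.13). At 11 days Krt6a was most like Anxa1 (0.27), Ecm1 (0.24) and Dmkn (0.24), Krt13 like Dmkn (0.22), Fabp5 (0.19) and Ecm1 (0.18), while S100a6 (0.25) and Sostdc1 (0.16) were among the genes most like Krt14. The lowest value for Krt14 there was with Lcn2 (-0.31).

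Barcodes were clustered without any keratin gene, and the level of each keratin was read per cluster. The 7-day libraries merged gave 10 clusters. Cluster 6, led by Sprr1a, Sprr2d and Sprr2e and squamous-like by Sprr1a, Sprr1b, Cnfn, Krtdap and Sbsn, had 278 barcodes. It had the highest level of Krt6a (6456 CPM [6357, 6556]), Krt13 (3083), Krt6b (1562), Krt16 (1011) and Krt4 (26.7, 67 UMIs), and held 40.9%, 54.6%, 77.0%, 50.4% and 68.4% of their 7-day UMIs. It also had the lowest level of Krt17 (716 CPM), while Krt14 was at 5382 there. The lowest cluster was at 524 CPM for Krt6a and at 27.0 for Krt6b, a 12.3-fold and a 55.8-fold range with 1 CPM added. Krt17 was highest in cluster 3 (3588 CPM; Lrrn4cl and Pfkfb3 among the leading genes), where Krt13 (100.3) and Krt15 (299) were lowest. Krt15 and Krt5 were both highest in cluster 5 (2125 and 2845 CPM; Lgi2, Lcn2 and Tfcp2l1 leading). In this clustering Krt14 varied least (1.75-fold), from 3580.4 CPM in the cycling-like cluster 8 to 6269.9 in cluster 7 (Slc39a1, Abhd2 and Tmem258 leading), while at a resolution of 0.4 the range was 1.73-fold for Krt14 and 1.67-fold for Krt5.

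The 11-day library gave 11 clusters. Cluster 7, led by Sprr2d, Psca and Sprr2f and left without a name because luminal duct and squamous markers were equal in number, had 707 of 9369 barcodes (7.55%). It held 65.6% of the Krt6a UMIs (2391 of 3644; 708 CPM), 98.5% of the Krt6b UMIs (324 of 329; 96.0 CPM), 79.1% of the Krt13 UMIs (709 CPM) and 60.2% of the Krt16 UMIs (56.0 CPM). Most UMIs of Krt6a, Krt6b, Krt13 and Krt16 in 11-day mSGOs were therefore in 1 small cluster, at levels below those of the squamous-like 7-day cluster. For Krt6b a few barcodes carried this, since 1 barcode held 80 of the 329 UMIs of the library (24.3%) and the 10 richest held 89.1%, and without these 10 the library level was 1.14 CPM. For Krt13 the 3 richest barcodes held 28.4% and the 10 richest 44.5% of the 3027 UMIs of the library, and without these 10 its level was 53.2 CPM. Krt17 was at 2443 CPM there, above its library level of 2014, unlike in the squamous-like 7-day cluster. Krt17 was highest in cluster 9 (3015 CPM; Acta2, Igfbp2 and Sfrp1 leading). Krt14 was highest in cluster 4 (2829 CPM; Meg3, Adam12 and Lgals1 leading) and at 651 CPM in cluster 3 (Klk1b11, Hp and Adcy2 leading). Krt15 and Krt5 were both highest in cluster 8 (2005 and 1539 CPM; Idi1, Sprr1b and Fdps leading), though the Krt5 interval [1479, 1601] overlapped that of cluster 7 [1436, 1518], and with a resolution of 0.4 they were highest in different clusters.

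**Figure D4:**
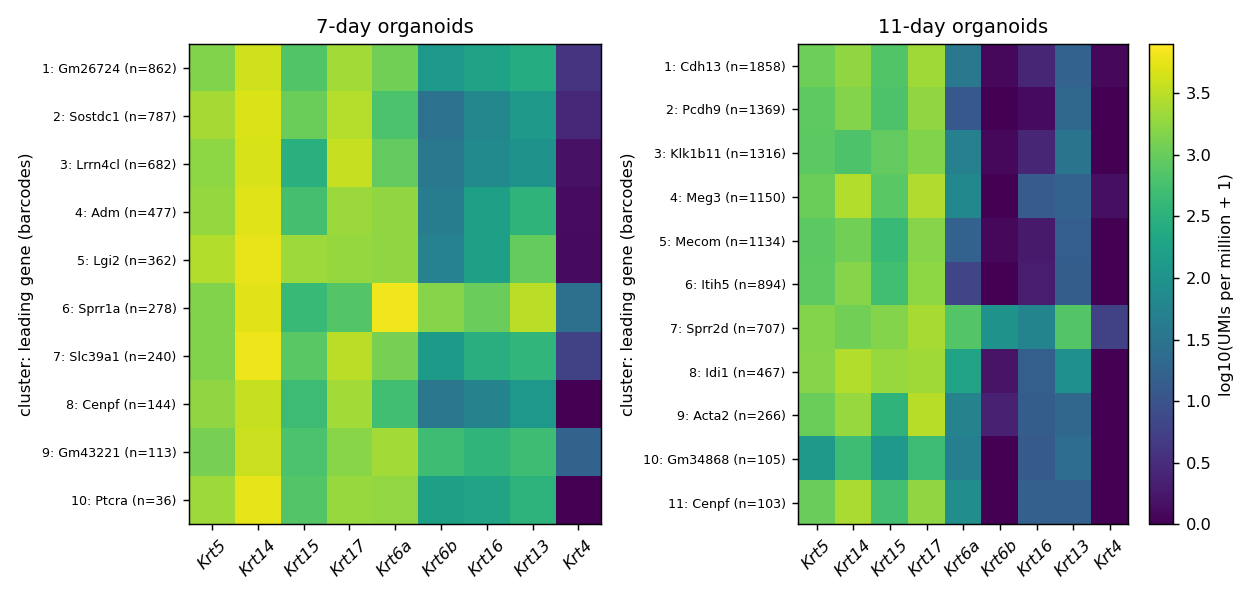
Level of each keratin (log10 of CPM + 1, colour) in the clusters of the 7-day libraries and of the 11-day library, which were made without keratin genes. In 7-day cluster 6 Krt6a is at 6456 CPM and Krt17 at its lowest (716), and in 11-day cluster 7 Krt6a is at 708 CPM.

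The irradiated libraries were then compared with the control within the 7-day clusters. Clusters are not replicates, and all values share the control library. Krt15 was higher in the photon library in 9 of 9 clusters (log2 ratio 0.62 to 1.53) and in the proton library in 9 of 9 (0.77 to 1.42). In the squamous-like cluster control mSGOs had 214 CPM of Krt15, photon mSGOs 622 and proton mSGOs 519. In cluster 5, where it was highest, it was at 1374, 2509 and 2423 CPM. In cluster 3, where it was lowest, it was at 129, 359.9 and 347 CPM.

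Krt6b was lower with protons in 7 of 8 clusters, but in the squamous-like cluster, which held 77.0% of all 7-day Krt6b UMIs, control mSGOs had 1555 CPM, photon mSGOs 1700.1 and proton mSGOs 1417, a proton ratio of -0.13 [-0.25, -0.02]. This cluster comprised 108 control, 90 photon and 80 proton barcodes, or 10.4%, 5.74% and 5.81% of their libraries. Its smaller share after irradiation moved with the lower Krt6b and Krt13 levels over all barcodes, and its part in them was not tested. Krt6a there was at 6646, 6632 and 6037 CPM and Krt13 at 3028, 3314 and 2893. These differences were under 1.5-fold. Krt16 was at 630.1, 1482 and 939 CPM in the squamous-like cluster, 2.35-fold higher after photons, with few barcodes behind it as given above. Between the irradiated libraries, Krt6a was lower with protons in 9 of 9 clusters (-0.57 to -0.14), and Krt5 likewise (-0.61 to -0.01).

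The share of 1 keratin within a pair was measured in each barcode with at least 10 UMIs of the pair. Krt17 made up a median of 30.8% of Krt17 and Krt14 in control barcodes (10th to 90th percentile 7.04% to 55.9%, 856 barcodes), 33.9% after photons, 32.0% after protons and 53.8% at 11 days (27.3% to 82.4%, 4674 barcodes). Krt15 made up a median of 3.33% of Krt15 and Krt14 in the control, 10.0% after photons, 8.33% after protons and 27.8% at 11 days. For both shares the median barcode of the other 3 libraries was above that of the control, as was the pooled share. Krt6a made up 32.4% of Krt6a and Krt5 in the control (7.14% to 80.6%, 707 barcodes), and 35.3% and 34.8% after photons and protons. At 11 days it made up 9.09% (627 barcodes). Pooled over these barcodes only, the Krt6a share was 46.9% in the control, 45.7% and 45.5% after photons and protons, and 23.8% at 11 days. Over all barcodes that met the Malat1 minimum, Krt6a and Krt5 were at 1812 and 2090 CPM in the control. At 11 days the 2 genes were at 115 and 1019 CPM. The 4 stress keratins made up a median of 34.9%, 35.7%, 33.3% and 37.2% of stress and basal keratins. The spread between barcodes was wider than counting gives. In the control the SD between barcodes was 28.9 percentage points for Krt6a of Krt6a and Krt5 where binomial counting alone would give 10.5, 17.8 against 8.04 for Krt17 of Krt17 and Krt14, and 12.7 against 5.53 for Krt15 of Krt15 and Krt14. At 11 days the Krt15 share had an SD of 30.9 against 12.5, and the 10th to 90th percentile ran from 0% to 83.3%, so that single barcodes held only Krt14 or mostly Krt15.

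**Figure D5:**
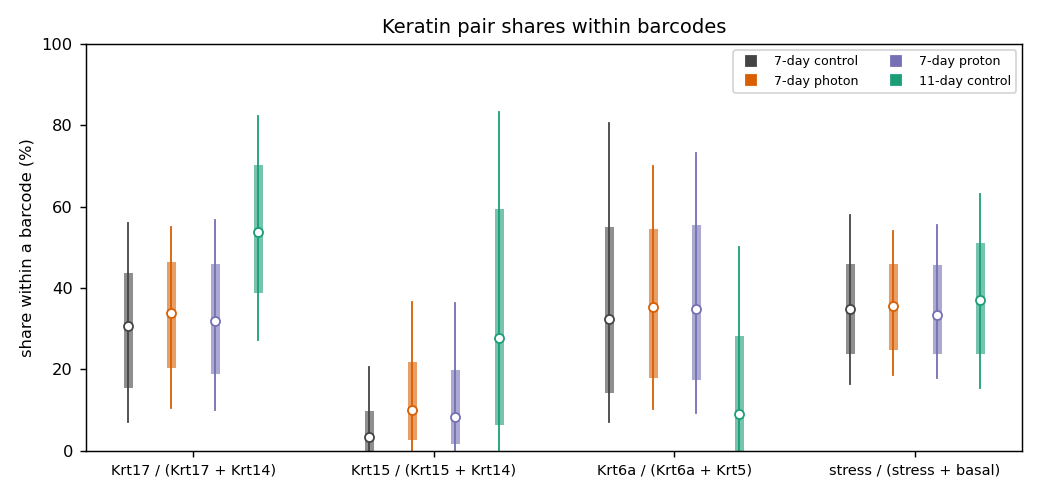
Share of 1 keratin in the UMIs of a pair within single barcodes (percent), in the 4 organoid libraries, over barcodes with at least 10 UMIs of the pair. Circles are medians, thick bars the middle 50% of barcodes and lines the 10th to 90th percentile. The median Krt17 share of Krt17 and Krt14 is 30.8% in the control and 53.8% at 11 days, and the median Krt6a share of Krt6a and Krt5 is 32.4% and 9.09%. For Krt6a and Krt5 the minimum kept 68.2% of control and 6.69% of 11-day barcodes.

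Of the 44 other keratin genes, 9 reached 20 CPM in a library. In the photon library 8 were compared, with none higher and 2 lower, where 3.19% of all genes compared were higher and 1.67% lower. With protons 9 were compared, with none higher and 3 lower, where 2.74% of all genes were higher and 1.98% lower. Krt10, the type I keratin of suprabasal epidermis, was at 251 CPM in the control, 91.3 after photons, 90.5 after protons and 23.1 at 11 days. Its log2 ratios were -1.45, -1.46 and -3.39, and over all kept barcodes -0.64, -0.83 and -3.09. Krt32, a hair keratin, was at 27.5, 15.7, 14.9 and 1.04 CPM. Both were thus called lower in all 3 libraries, but over all kept barcodes Krt32 was at -0.30 with photons and -0.49 with protons and was not called, which left 1 other keratin lower with each. At 11 days 8 were compared, with none higher and 2 lower, where 40.5% of all genes were higher and 5.79% lower.

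The 16 listed anchoring genes hold keratin filaments to desmosomes and hemidesmosomes. Of all genes compared, 3.19% were called higher and 1.67% lower with photons, and 2.74% and 1.98% with protons. At 11 days these shares were 40.5% and 5.79%, or 48.8% and 5.84% over all kept barcodes, and in tissue 22.1% and 22.9%. With photons 15 were compared and 1, the envelope plakin Evpl (-0.59), was called lower. With protons 1 of 15, the plakin Eppk1 (-0.82), was lower. None was higher in either, and over all kept barcodes none of 14 was called in either direction. At 11 days 2 of 15 were higher, among them Eppk1 (2.06), and 4 lower, where over all kept barcodes 4 were higher and 2 lower. In tissue 12 of 15 were lower, with Col17a1, the hemidesmosome collagen, at 137 CPM in the control and no UMI in tissue, and Pkp1 at 236 and 2.61 CPM. Of 22 listed transcription factors that act on epithelial genes, 17 were compared. With photons Fos (83.2 CPM in the control and 182, ratio 1.12) and Sox9 (113 and 197, 0.80) were higher and Grhl1 (66.4 and 39.1, -0.75) lower, though over all kept barcodes Grhl1 was at -0.35 and was not called. With protons Fos (1.05) and Sox9 (0.78) were higher and none was lower. At 11 days 2 were higher, Stat3 (33.1 and 111 CPM, 1.71) and Fos (1.48). The median over all genes was 0.74 there, and neither gene was 2-fold above that median. At this time 4 were lower, among them Junb (479.7 and 121, -1.98), Fosl1 (-1.54) and Klf4 (-1.46), where over all kept barcodes 5 were higher and 4 lower. In tissue 3 were higher and 9 lower, with Trp63, the basal cell master regulator, at 110.1 CPM in the control and no UMI in tissue.

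Of 23 listed genes of wound-activated epithelium, 13 were compared in the photon library, where 3.19% of all genes compared were called higher and 1.67% lower. Lcn2 (28.8 and 65.1 CPM, 1.15), Defb14 (63.7 and 115, 0.84) and Sprr1a (754 and 1162, 0.62) were called higher and Plaur (-0.83) and Sprr1b (-0.65) lower. With protons 1 of 15, Sprr1b (-0.68), was lower and none was higher, whereas over all kept barcodes 2 of 14 were higher and 2 lower. Of all genes, 2.74% were higher and 1.98% lower with protons, or 3.01% and 1.59% over all kept barcodes. With photons all kept barcodes gave 3 higher and 1 lower of 14 (2.66% and 1.53% of all genes), and Sprr1a (0.25) and Sprr1b (-0.56) were not called. This list thus had no common direction after irradiation. At 11 days 3 of 14 were higher and 7 lower, where 40.5% of all genes were higher and 5.79% lower. Lcn2, an iron-siderophore binding protein, was at 2709.6 CPM (6.51) and Tnc at 91.2 (2.46), while Defb14 (-4.86), Il24 (50.7 and 1.8 CPM, -4.21) and Sprr1b (337 and 64.1, -2.37) were lower. Genes of the wound list thus stood at both extremes at 11 days, whereas Krt6a, Krt6b and Krt16 were all low. In tissue 4 of 17 were higher and 10 lower, where 22.1% of all genes were higher and 22.9% lower. The 10 squamous markers summed to 1915 CPM (control), 2059 (photon), 1706 (proton) and 2587 (11-day), of which Sprr1a alone gave 754, 1162, 963 and 2444 CPM. Over all kept barcodes the sums were 1865, 1663, 1315 and 2570 CPM, so the photon sum was then below that of the control.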

How the data were processed

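The authors deposited raw UMI counts per gene and cell barcode as 1 matrix a library, with the gene and barcode lists. Cells that excluded propidium iodide had been sorted and loaded for droplet-based 3′ libraries. Per the submitters' processing notes reads were aligned to mm10 with Cell Ranger 5, whereas the study's methods name GRCm39, and no build is named in the file headers. The matrix headers give software version 7.0.0 for the 11-day library and 3.0.1 for the others. No deposited barcode had fewer than 500 UMIs.

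Doublets were removed per library with Scrublet (scanpy 1.11.5) at 0.8% per 1000 barcodes. The automatic threshold was used unless it found under 0.5% doublets, in which case the top-scoring barcodes were taken out to reach the rate. Removed were 378 control, 2674 photon, 1799 proton, 855 11-day and 9 tissue barcodes (5.50%, 14.6%, 10.1% and 8.27% of the organoid libraries), so removal differed between libraries. CPM have exact Poisson, ratios conditional exact and shares Clopper-Pearson intervals. Clustering (leidenalg 0.10.2) used 2000 variable genes without keratins, 30 principal components, 15 neighbours and a resolution of 0.8, and clusters were named only from listed markers, at 3 or more 2-fold higher. The scripts were tested on simulated data. The study's limit of 2500 detected genes was tried only as an alternative.

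The 9 genes and all lists were chosen with earlier results of these data known. The other genes named were the 3 most alike per keratin, other keratins with at least 20 CPM, up to 5 genes per list with the largest ratios, the 3 leading genes per cluster and cell type markers. Some genes picked by this rule are not reported here. Alternatives comprised other filters, thinning, scalings and pseudocounts, and one without the 10 barcodes richest in a gene, which was chosen after seeing the data. Gene positions are from RefSeq on GRCm38.p6, and sequences from GENCODE vM39 transcripts.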

Additional observations from a re-analysis of the deposited data

Results flagged for a closer look

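Barcodes with over 5% mitochondrial UMIs and a Malat1 share of at least 1% were left out of the reported values and entered only an alternative without a mitochondrial limit, and keratins were found in them in all 5 libraries. The 9 genes summed to 8258 CPM in 276 control barcodes, 9472 CPM in 888 photon barcodes, 8416 CPM in 727 proton barcodes and 1568.5 CPM in 3921 11-day barcodes. In each of these the sum was lower than in the barcodes used, and Krt15 was again higher after photons (852 CPM) and protons (868 CPM) than in the control (381 CPM). In tissue the sum was 12.1 CPM in 184 such barcodes. In the 11597 tissue barcodes with fewer than 200 detected genes it was 1.84 CPM, from 21 UMIs.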

How the results depend on the processing

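Over the 5 comparisons, 632 ratios of single keratins were recomputed, of which 431 differed from the reported value by less than its counting interval, 200 by more, and 1 called ratio changed sign. In all 29 of the 632 had the other sign than the reported value, among them Krt5 with photons, which kept its direction in 9 of 16 alternatives. Requiring at least 2500 genes per barcode turned Krt6b in the proton library from -0.66 to 0.38. The number of keratins called was 2 in place of 1 for photons, and 2 in place of 0 between protons and photons, when at most 2500 genes were allowed. For protons it was 1 in place of 2 over all kept barcodes, at a Malat1 minimum of 2% and at 2500 or more genes, and 3, with Krt13, in 6 alternatives such as at most 2500 genes. The cause was not tested. Krt15 was past the fold in 16 of 16 alternatives with photons (0.93 to 1.26) and in 16 of 16 with protons (0.82 to 1.16), Krt6b with protons in 12 of 16 and Krt13 with protons in 7 of 16. Krt16 with photons ranged from -0.01 at 2500 or more genes to 0.68 at no more than 2500, and Krt15 at 11 days from -0.11 to 1.07. Krt6b at 11 days ranged from -6.49 at no more than 2500 genes to -1.17 at 2500 or more. No paired analysis was possible because each group has 1 library. Depth limits Krt4 in all libraries and all 9 genes in tissue.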
